A study of Rattus norvegicus with 6 samples.

Results

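The genes described here make cholesterol and fatty acids, sense and export sterols, or build the galactolipids of myelin, and they were chosen as the rows of the deposited count table that carry one of 37 gene names. Of those names 33 were found among the 33455 genes of the table, and all 33 passed the filter on low counts. Acat2, Cyp51, Srebf1 and Scd were not found as names. RNA had been taken from the lesion centre of the spinal cord of wild type rats (Rattus norvegicus) after a contusion at segment T9. One group received a gel and ultrasound (Gel+US, n = 3) and the other a piezoelectric gel and ultrasound (Piezo Gel+US, n = 3), so injury and ultrasound were common to all animals. A piezoelectric material turns strain into electrical charge. The ultrasound (100 Hz, 1 W/cm2) lasted 10 min each day, with regular pauses of 10 s, for 4 weeks, after which about 5 mm3 of cord was harvested. The comparison addresses which transcripts differed when the gel was piezoelectric.

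Cholesterol is built from acetyl-CoA through mevalonate, farnesyl diphosphate, squalene and lanosterol. When sterol in the endoplasmic reticulum is low, the escort protein Scap carries SREBP transcription factors to the Golgi for cleavage, and the freed factors switch on the enzymes of the pathway, whereas Insig proteins hold Scap back. In the nervous system cholesterol is made locally, since lipoproteins of the blood do not cross the blood-brain barrier, and oligodendrocytes in the cord and Schwann cells in peripheral nerve use much of it for myelin, along with galactolipids that carry very long and 2-hydroxylated fatty acids.

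The members lay higher in Piezo Gel+US on average, but fewer did so when replicate 2 of either group or of both was left out. No member passed the test. By edgeR's quasi-likelihood test 0 of 33 members were called at an adjusted p below 0.05, against 0% of all 17066 genes tested, and the adjusted p of every member was 0.994 or 0.997. DESeq2 and limma-voom likewise called 0 genes, and 359 genes had an unadjusted p below 0.05 by edgeR. The log2 fold change, Piezo Gel+US over Gel+US, was above 0 for 30 of the 33 members, against 47.1% of all genes, and below 0 for 3, against 52.9%. Its median was 0.34, against -0.02 for all genes. Leaving out Piezo Gel+US replicate 2 alone left 24 members above 0 and a median of 0.05, and leaving out Gel+US replicate 2 alone left 24 and 0.17. Without replicate 2 of both groups, an alternative chosen after seeing the data, the log2 fold change was above 0 for 11 members and the median was -0.10. These libraries held the lowest and the highest values of most members, so leaving them out was bound to lower the fold change of most. Unadjusted p was below 0.05 for 3 members on the higher side (1.38% of all genes) and for 0 on the lower side (0.721%). The groups did not overlap, with Piezo Gel+US higher, for 5 members, Pmvk, Lss, Scap, Elovl1 and Fa2h, against 4.08% of all genes, and for 0 members with Piezo Gel+US lower, against 2.73%.

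**Figure D1:**
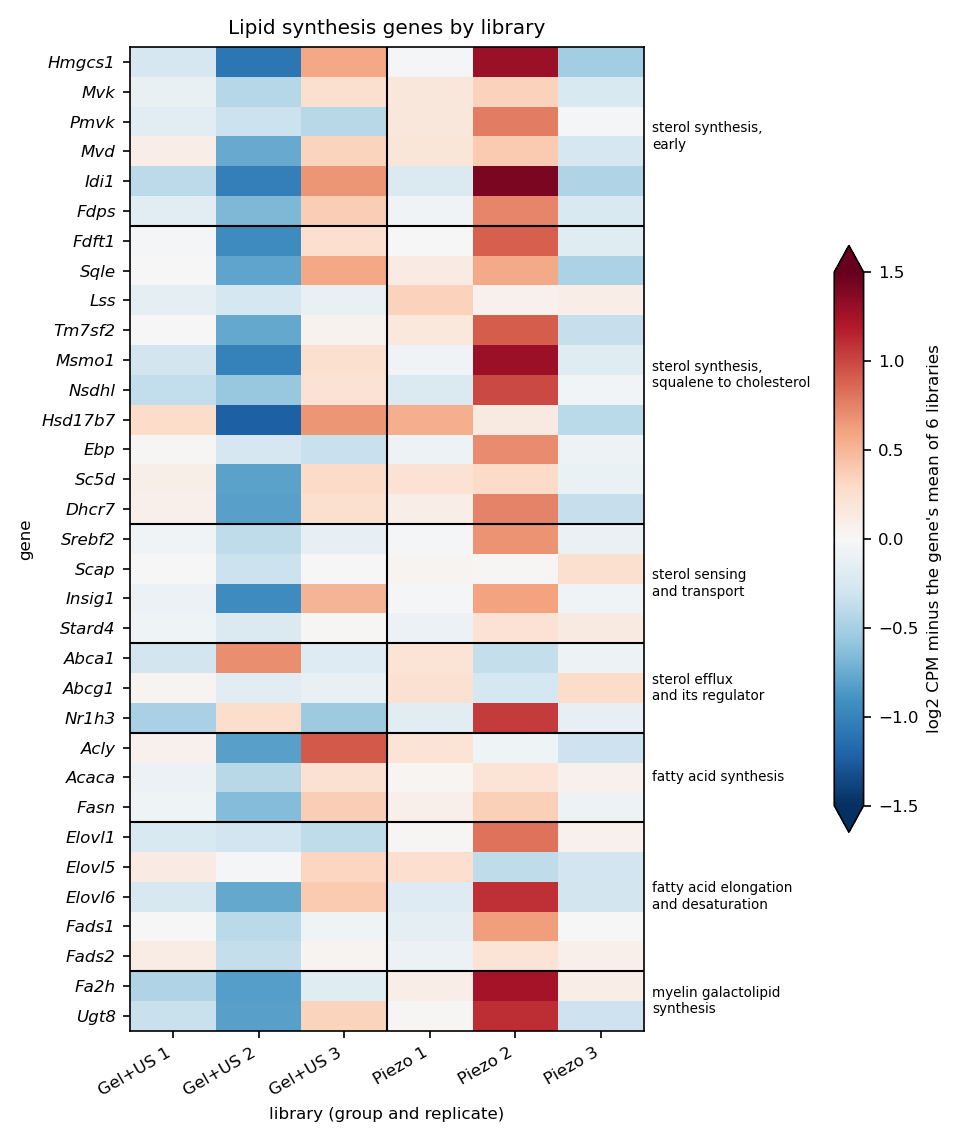
Heat map of the 33 genes (rows, in 7 classes) in the 6 libraries (columns, 3 Gel+US left of the line and 3 Piezo Gel+US right of it), coloured by log2 CPM minus the gene's mean of the 6 libraries; values beyond the ends of the scale take its end colours. Piezo Gel+US replicate 2 held the highest value of 22 genes and Gel+US replicate 2 the lowest value of 26.

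Within each group the libraries differed widely. Levels are given as CPM, counts scaled to library size with trimmed mean of M-values factors. Piezo Gel+US replicate 2 was the highest library for 22 of the 33 members, against 29.2% of all genes, and Gel+US replicate 2 the lowest for 26, against 15.8%. Both held at once for 18 members, against 4.51% of all genes. Gel+US replicate 3 was the highest library for a further 7 members, against 24.4% of all genes, and Piezo Gel+US replicate 2 the lowest for 3, against 28.4%. Between libraries of equal replicate number, 29 members were higher in Piezo Gel+US for replicate 1 (50.5% of all genes) and 30 for replicate 2 (48.2%), but 13 for replicate 3 (51.8%). The median log2 difference was 0.14, 1.09 and -0.41 for replicates 1 to 3. In all 3 pairs 7 members were higher in Piezo Gel+US, against 14.3% of all genes. The same library held the highest sum of Schwann cell markers, 12446 CPM against 2454 to 5112 CPM in the other 5, and the part of this in the member values was not tested. In tissue samples fewer cells of a type and less RNA per cell cannot be told apart. Total counts were 17212653 to 21436820 per library.

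Promoter sequences are shown for the 3 sterol enzymes whose levels spread most across libraries and for Fa2h and Elovl1, the members of unadjusted p below 0.05 that have an entry, since the results below turn on these genes. Each is the stretch of 200 bases before the annotated start, 5′ to 3′, from the RefSeq promoter table of the Norway rat assembly GRCr8, matched by gene symbol because the build behind the counts is not named, and capitals mark CCAAT boxes, written CCAAT or, on the other strand, ATTGG. NF-Y, the factor known to bind this box, is known to act beside SREBP at sterol gene promoters.
Idi1 (chr17:66547525-66547724, minus strand): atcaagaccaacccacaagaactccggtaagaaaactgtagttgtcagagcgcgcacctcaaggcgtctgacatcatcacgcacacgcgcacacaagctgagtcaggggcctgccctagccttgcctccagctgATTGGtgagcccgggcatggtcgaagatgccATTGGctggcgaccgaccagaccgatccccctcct
Hmgcs1 (chr2:53382104-53382303, plus strand): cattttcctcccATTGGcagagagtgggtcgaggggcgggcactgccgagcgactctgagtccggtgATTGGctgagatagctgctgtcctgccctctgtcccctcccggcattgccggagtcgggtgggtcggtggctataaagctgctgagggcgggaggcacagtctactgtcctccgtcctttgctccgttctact
Msmo1 (chr16:29746913-29747112, plus strand): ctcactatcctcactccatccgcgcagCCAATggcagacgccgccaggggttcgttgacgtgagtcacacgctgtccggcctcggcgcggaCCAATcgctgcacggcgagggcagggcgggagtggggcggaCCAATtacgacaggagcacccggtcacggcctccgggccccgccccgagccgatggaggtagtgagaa
Fa2h (chr19:56273481-56273680, minus strand): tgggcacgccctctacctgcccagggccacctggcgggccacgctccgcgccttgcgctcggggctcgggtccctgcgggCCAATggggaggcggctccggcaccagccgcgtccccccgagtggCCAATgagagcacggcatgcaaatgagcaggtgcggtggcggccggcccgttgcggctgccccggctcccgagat
Elovl1 (chr5:137247955-137248154, plus strand): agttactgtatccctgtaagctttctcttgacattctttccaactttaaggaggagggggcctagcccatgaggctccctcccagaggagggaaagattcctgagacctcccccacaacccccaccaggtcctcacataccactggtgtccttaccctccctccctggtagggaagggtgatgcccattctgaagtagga
The Idi1, Hmgcs1 and Fa2h stretches hold 2 boxes each, that of Msmo1 holds 3, and that of Elovl1 holds 0. Of the 37 listed names 29 had a promoter in the table, and the 250 bases before the start were searched on both strands. CCAAT was found for 12 of 15 sterol synthesis enzymes, 8 of them with more than 1 box, and for 7 of 14 other members, while 34% of the 33469 promoters in the table held it. Members were counted by gene symbol, with a match in any entry of that symbol, and the share of all promoters by entry. The letters TCACNCCAC, a form of the sterol regulatory element bound by SREBP, were in 0 of 29 members and 0.974% of all promoters. Their shorter core CACNCCAC, which overlaps them, was in 5 and 4.89%, and the E-box CACGTG in 5 and 5.59%. These matches describe the letters in the window and not binding.

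The early enzymes, from acetyl-CoA to farnesyl diphosphate, were all 6 above 0 in log2 fold change, with a median of 0.43, and all 6 were highest in Piezo Gel+US replicate 2. Hmgcs1 makes HMG-CoA, the precursor of mevalonate. It measured 403, 225 and 715 CPM in Gel+US replicates 1 to 3 and 470, 1176 and 334 CPM in Piezo Gel+US replicates 1 to 3. The groups overlapped widely, with the second of the Piezo Gel+US libraries above all others and the third below all but Gel+US replicate 2. The means were 447 ± 248 CPM and 660 ± 452 CPM (SD, n = 3 each), and the log2 fold change was 0.56 (95% interval -0.86 to 1.98). Idi1, which isomerises isopentenyl diphosphate, had the same order at the ends, with 37.3, 24.0 and 77.7 CPM in Gel+US and 42.2, 131 and 35.9 CPM in Piezo Gel+US. The ratio of its highest to its lowest library, 5.45, was the largest of the 33 members, where the median of all genes was 2.05. When Piezo Gel+US replicate 2 was left out, Hmgcs1 stood at -0.16 and Idi1 at -0.26 in log2 fold change.

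Pmvk, the kinase that adds the second phosphate to mevalonate, did not follow that order. It measured 25.2, 22.6 and 21.2 CPM in Gel+US and 32.0, 48.0 and 27.7 CPM in Piezo Gel+US. All 3 Piezo Gel+US libraries lay above all 3 Gel+US libraries, with a log2 fold change of 0.64 (95% interval 0.06 to 1.22, unadjusted p = 0.0349, adjusted p = 0.994 by edgeR). Without Piezo Gel+US replicate 2 it was 0.37. The remaining early enzymes, Mvk, Mvd and Fdps, had log2 fold changes of 0.19, 0.17 and 0.30 and were each lowest in Gel+US replicate 2.

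From squalene to cholesterol, 10 of 10 enzymes were above 0, with a median of 0.38. Msmo1, which removes methyl groups at carbon 4 of the sterol, had the largest value of the sterol enzymes. It measured 140, 84.5 and 201 CPM in Gel+US and 164, 413 and 150 CPM in Piezo Gel+US, a log2 fold change of 0.77 (95% interval -0.40 to 1.94). A single library, Piezo Gel+US replicate 2, stood above the range of Gel+US, and without it the log2 fold change was 0.14. Fdft1, squalene synthase, measured 115, 60.9 and 140 CPM in Gel+US and 116, 218 and 103 CPM in Piezo Gel+US, a log2 fold change of 0.47. Sqle, the epoxidase that is a slow step of the pathway, measured 94.6, 55.2 and 142 CPM in Gel+US and 104, 141 and 68.4 CPM in Piezo Gel+US. Here Gel+US replicate 3 and Piezo Gel+US replicate 2 were level, and the log2 fold change was 0.10 (95% interval -0.86 to 1.06). Dhcr7, which makes cholesterol from 7-dehydrocholesterol, measured 44.1, 23.9 and 49.3 CPM in Gel+US and 44.8, 70.1 and 33.0 CPM in Piezo Gel+US, a log2 fold change of 0.34. Fdft1, Sqle and Dhcr7 all overlapped between groups and were lowest in Gel+US replicate 2.

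Lss, which closes the sterol rings to give lanosterol, had another library order than its neighbours in the pathway. It measured 64.7, 59.5 and 66.1 CPM in Gel+US and 90.2, 74.5 and 76.2 CPM in Piezo Gel+US. The groups did not overlap, and its highest library was Piezo Gel+US replicate 1. Its log2 fold change of 0.34 (95% interval -0.03 to 0.71, unadjusted p = 0.0643) was 0.35 without replicate 2 of both groups. The other enzymes of this segment were the reductase Tm7sf2, the decarboxylase Nsdhl, the ketoreductase Hsd17b7, the isomerase Ebp and the desaturase Sc5d. Their log2 fold changes ran from 0.04 for Hsd17b7 to 0.55 for Nsdhl. Hsd17b7 was the scarcest member, with 39 to 160 counts per library. Over all 16 sterol enzymes the summed level was 1288, 785 and 1859 CPM in Gel+US and 1464, 2804 and 1159 CPM in Piezo Gel+US. The median log2 difference between libraries of equal number was 0.16, 1.38 and -0.45 for replicates 1 to 3.

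**Figure D2:**
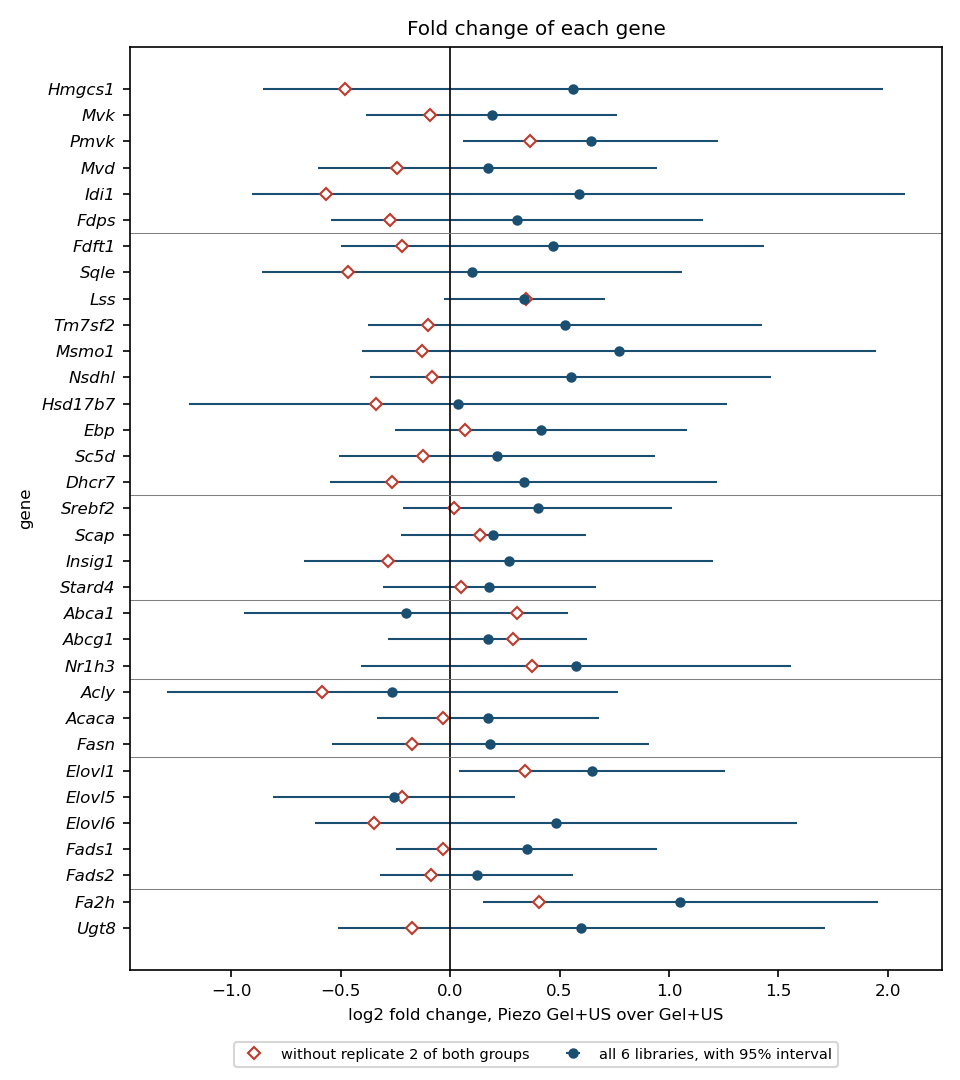
Log2 fold change of Piezo Gel+US over Gel+US for each of the 33 genes, with filled points and 95% intervals from all 6 libraries and open diamonds from the fit without replicate 2 of both groups. The filled points lie above 0 for 30 genes and the diamonds for 11, and Pmvk, Lss, Elovl1 and Fa2h are on the same side in both.

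Rows whose descriptions correspond to names not found were not counted among the members. A row described as lanosterol 14-alpha demethylase, the enzyme encoded by Cyp51, measured 201, 105 and 291 CPM in Gel+US and 228, 288 and 161 CPM in Piezo Gel+US, a log2 fold change of 0.18. The groups overlapped, and Gel+US replicate 2 was again lowest. A second row of like description was at 5.22 to 16.9 CPM, and reads could be split between such copies. A pair of rows described as cytosolic or cytosolic-like acetyl-CoA acetyltransferase, the product of Acat2, had log2 fold changes of -0.24 and -0.07. No row was matched to Srebf1.

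The median ratio of highest to lowest library was 1.77 for the 4 sensing and transport genes and 2.79 for the 16 enzymes. Within the 4 the ratio ran from 1.35 for Stard4 to 2.92 for Insig1. Srebf2, the SREBP that governs sterol genes, measured 235, 187 and 224 CPM in Gel+US and 240, 386 and 226 CPM in Piezo Gel+US, a log2 fold change of 0.40 (95% interval -0.22 to 1.02). Apart from the high value of Piezo Gel+US replicate 2 and the low one of Gel+US replicate 2 the libraries were nearly level. Insig1, itself a target of SREBP, measured 210, 116 and 317 CPM in Gel+US and 219, 340 and 215 CPM in Piezo Gel+US, the same order at the ends as Hmgcs1 (log2 fold change 0.27). Scap measured 175, 140 and 175 CPM in Gel+US and 179, 177 and 206 CPM in Piezo Gel+US. Its groups did not overlap, but by a narrow gap, and the log2 fold change was 0.20 (95% interval -0.22 to 0.62). Stard4, a carrier of sterol between membranes, measured 10.2, 9.16 and 10.7 CPM in Gel+US and 9.98, 12.4 and 11.7 CPM in Piezo Gel+US, a log2 fold change of 0.18. It was the member of narrowest range among the 4, and the groups overlapped.

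The efflux genes differed among themselves in library order. Abca1, which loads cholesterol onto apolipoproteins, measured 102, 200 and 108 CPM in Gel+US and 143, 96.6 and 118 CPM in Piezo Gel+US. It was highest in Gel+US replicate 2, where 14 of 16 sterol enzymes were lowest, and lowest in Piezo Gel+US replicate 2, where 12 of 16 were highest. Its log2 fold change was -0.20 (95% interval -0.94 to 0.54) and became 0.17 without Gel+US replicate 2. Abcg1, a second sterol exporter, measured 65.5, 57.5 and 59.0 CPM in Gel+US and 74.8, 53.1 and 77.2 CPM in Piezo Gel+US, a log2 fold change of 0.17. Its lowest library was likewise Piezo Gel+US replicate 2. Nr1h3, the oxysterol receptor that drives both exporters, measured 12.2, 20.5 and 11.7 CPM in Gel+US and 15.4, 35.3 and 15.6 CPM in Piezo Gel+US, a log2 fold change of 0.58. It was high in replicate 2 of both groups, and without Piezo Gel+US replicate 2 the value was 0.06.

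For all 3 genes of fatty acid synthesis the highest library was Gel+US replicate 3. Acly, which makes cytosolic acetyl-CoA from citrate, measured 365, 199 and 660 CPM in Gel+US and 404, 333 and 282 CPM in Piezo Gel+US. The Gel+US libraries spanned the whole Piezo Gel+US range, and the log2 fold change was -0.26 (95% interval -1.29 to 0.77), or 0.26 without Gel+US replicate 3. Fasn, the fatty acid synthase, measured 573, 382 and 776 CPM in Gel+US and 631, 766 and 568 CPM in Piezo Gel+US, a log2 fold change of 0.18. Acaca, the carboxylase that makes malonyl-CoA, measured 199, 159 and 248 CPM in Gel+US and 216, 245 and 221 CPM in Piezo Gel+US, a log2 fold change of 0.17. Both overlapped between groups, and Gel+US replicate 2 was the lowest library for all 3 genes.

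Among elongases and desaturases, 4 of 5 were above 0, with a median of 0.35. Elovl1 extends saturated and monounsaturated acids to very long chains. It measured 150, 145 and 136 CPM in Gel+US and 178, 311 and 185 CPM in Piezo Gel+US. Every Piezo Gel+US library was above every Gel+US library, with a log2 fold change of 0.65 (95% interval 0.04 to 1.25, unadjusted p = 0.0402, adjusted p = 0.994 by edgeR), or 0.33 without Piezo Gel+US replicate 2. Elovl6, which extends palmitate, kept the order of the sterol enzymes, with 41.1, 28.6 and 63.7 CPM in Gel+US and 42.5, 104 and 40.2 CPM in Piezo Gel+US, a log2 fold change of 0.48, and -0.11 without Piezo Gel+US replicate 2. Elovl5, an elongase of polyunsaturated acids, had a value below 0, with 227, 205 and 262 CPM in Gel+US and 250, 160 and 171 CPM in Piezo Gel+US, a log2 fold change of -0.26. Its lowest library was Piezo Gel+US replicate 2.

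Fads1 and Fads2 encode the delta-5 and delta-6 desaturases. They lie on the same sequence in the deposited coordinates, whose build and species are not named, Fads2 at 9540801 to 9579868 on the minus strand and Fads1 at 9660162 to 9674713 on the plus strand. Fads1 measured 136, 104 and 130 CPM in Gel+US and 124, 211 and 136 CPM in Piezo Gel+US, a log2 fold change of 0.35. Fads2 measured 68.3, 49.2 and 65.1 CPM in Gel+US and 59.4, 72.8 and 66.3 CPM in Piezo Gel+US, a log2 fold change of 0.12. In both genes the groups overlapped and replicate 2 gave the highest library in Piezo Gel+US and the lowest in Gel+US.

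Stearoyl-CoA desaturases put the double bond into saturated acids. The name Scd was not found, and the row described as acyl-CoA desaturase 1 measured 48.3, 24.9 and 57.0 CPM in Gel+US and 64.4, 31.6 and 36.3 CPM in Piezo Gel+US (log2 fold change 0.02). The row described as acyl-CoA desaturase 2, the brain form encoded by Scd2, had 7518, 4775 and 7796 CPM in Gel+US and 8340, 9366 and 8043 CPM in Piezo Gel+US, without overlap of the groups (log2 fold change 0.36, 95% interval -0.42 to 1.14). Per kb of gene length this was 1224 CPM, above all 33 members.

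Per kb of deposited gene length, which depends on the unnamed annotation, and averaged over the 6 libraries, Ugt8 led the members at 196 CPM per kb, followed by Hmgcs1 at 158, Fa2h at 140, Elovl1 at 112 and Msmo1 at 109. Hsd17b7 (3.20) and Nr1h3 (5.52) were lowest. The gaps between these leading genes were small beside the spread over libraries, in which Hmgcs1 alone ranged 5.22-fold.

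The galactolipid enzymes showed the largest differences among the classes, with a median log2 fold change of 0.83 for the 2 genes. Fa2h adds the 2-hydroxyl group to fatty acids of myelin lipids. It measured 230, 178 and 276 CPM in Gel+US and 336, 744 and 337 CPM in Piezo Gel+US, without overlap. The means were 228 ± 49.3 CPM and 472 ± 235 CPM (SD, n = 3 each). The log2 fold change, 1.05 (95% interval 0.15 to 1.95), was the largest of the 33 members and had the lowest p of them (unadjusted p = 0.0285, adjusted p = 0.994 by edgeR). It was 0.55 without Piezo Gel+US replicate 2 and 0.41 without replicate 2 of both groups. Ugt8, which makes galactosylceramide, measured 518, 371 and 818 CPM in Gel+US and 662, 1401 and 526 CPM in Piezo Gel+US. Unlike Fa2h its groups overlapped, and its log2 fold change of 0.60 (95% interval -0.51 to 1.71) was 0.05 without Piezo Gel+US replicate 2.

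**Figure D3:**
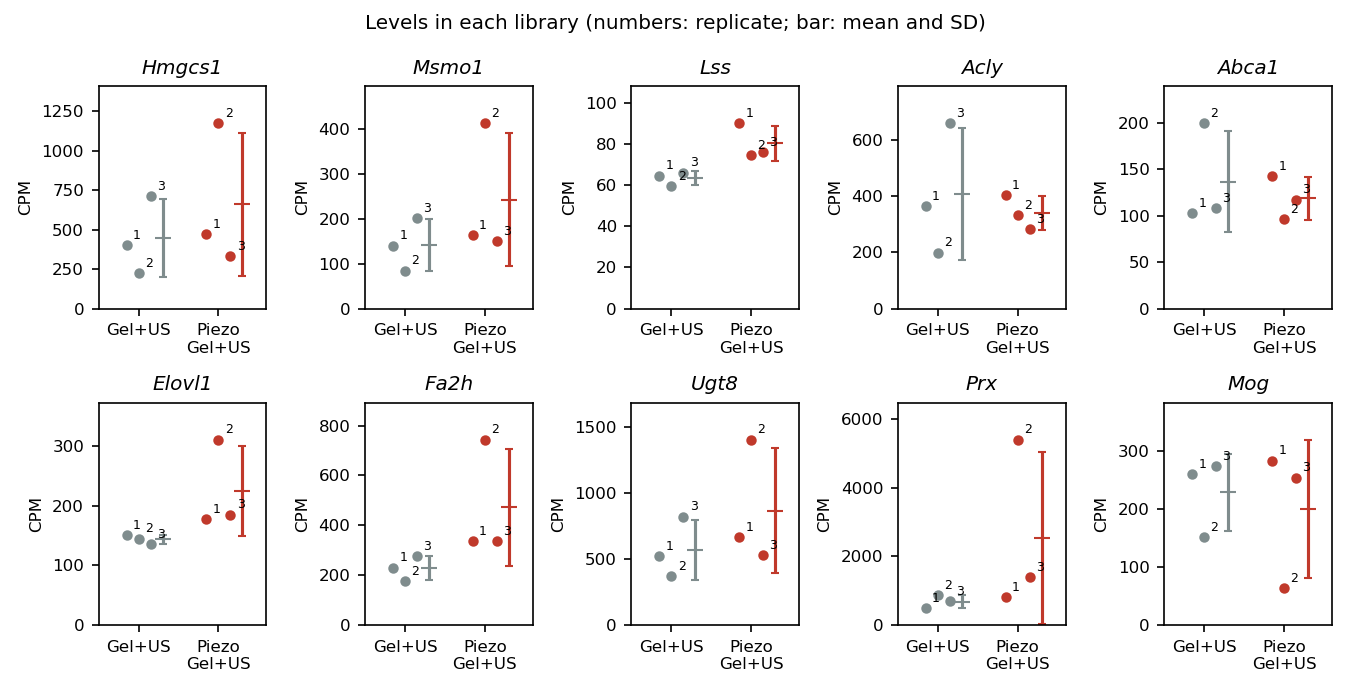
CPM (linear axis from 0) in each library for 8 lipid genes and for the myelin markers Prx and Mog, with the replicate number beside each point and bars for mean and SD (n = 3 per group). Lss, Elovl1 and Fa2h show no overlap of the groups, while Hmgcs1, Msmo1 and Ugt8 have a single Piezo Gel+US library, replicate 2, above the Gel+US range.

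Most Schwann cell markers were highest in Piezo Gel+US replicate 2, as most members were, and 1 of the 12 tested was lowest in Gel+US replicate 2. Of the Schwann cell list 12 of 16 genes were tested and 12 were above 0 (median 1.72), and 10 were highest in Piezo Gel+US replicate 2. The list's summed level was 2454, 3449 and 2754 CPM in Gel+US and 3726, 12446 and 5112 CPM in Piezo Gel+US, without overlap. That lack of overlap depends on S100b, which is on the astrocyte list too. It measured 1278, 1227 and 1250 CPM in Gel+US and 1758, 1308 and 1627 CPM in Piezo Gel+US. Gene by gene, Cldn19 and S100b did not overlap between groups, while all other tested markers of the list did. Prx, a scaffold of peripheral myelin, measured 489, 865 and 687 CPM in Gel+US and 814, 5400 and 1403 CPM in Piezo Gel+US, a log2 fold change of 1.90, and 0.69 without Piezo Gel+US replicate 2. Sox10, Pmp22 and Pmp2 were not found by name, Fgf5 had 1 to 6 counts per library and fell below the filter, and no marker found had 0 counts. Ngfr, named after its values were seen, was level, with a mean of 19.8 CPM in each group (log2 fold change 0.0015). Its highest library was Gel+US replicate 2, at 38.3 CPM. Gel+US replicate 3, the library with the next highest sterol sum, had a Schwann sum of 2754 CPM, inside the Gel+US range. Gel+US replicate 2, in which 26 members were lowest, held the highest Schwann sum of its group. The part of Schwann cells in the member values was not tested.

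Most markers of central myelin were not highest in Piezo Gel+US replicate 2. Of 16 oligodendrocyte markers 8 were above 0 (median 0.01), and 12 were lowest in that library. The 2 highest there, Mal and Aspa, were lowest in Gel+US replicate 2 and were named after their values were seen. Mal measured 570, 492 and 738 CPM in Gel+US and 724, 2031 and 953 CPM in Piezo Gel+US. Its log2 fold change was 1.04 (unadjusted p = 0.0465, adjusted p = 0.994 by edgeR). Their sum was 28702 to 46321 CPM in Gel+US and 33283 to 55275 CPM in Piezo Gel+US. Mog, a protein of the outer surface of central myelin, measured 260, 152 and 274 CPM in Gel+US and 284, 63.6 and 254 CPM in Piezo Gel+US. Mbp, found in central and peripheral myelin, measured 26208, 16724 and 19523 CPM in Gel+US and 31502, 21978 and 35509 CPM in Piezo Gel+US. The oligodendrocyte sum was lowest in Gel+US replicate 2, the library in which 26 members were lowest. Mbp, shared with peripheral myelin, made up most of that sum, and gene by gene 4 of the 16 markers were lowest in that library. The part of oligodendrocytes in the member values was not tested.

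**Figure D4:**
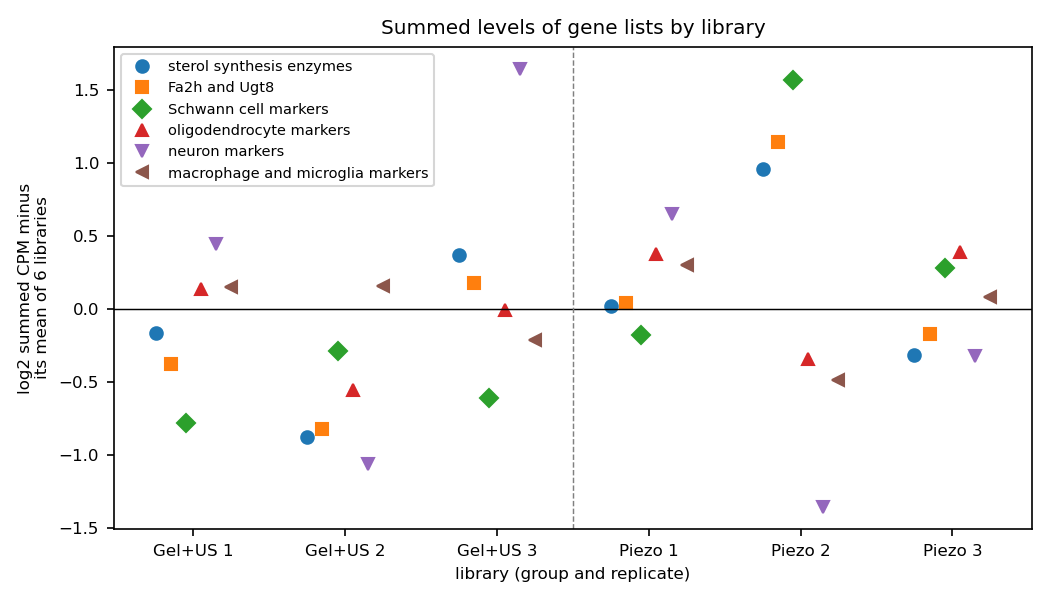
Summed CPM of 6 gene lists in each library, as log2 after subtracting the list's mean of the 6 libraries. Sterol enzymes, Fa2h with Ugt8, and Schwann cell markers are all highest in Piezo Gel+US replicate 2, where neuron, macrophage and microglia markers are lowest, and Gel+US replicate 2 is lowest for the sterol and galactolipid genes.

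Other cell types gave the following values. Astrocyte markers were below 0 for 9 of 10 genes, and 8 of the 10 were lowest in Piezo Gel+US replicate 2, where their sum was 2728 CPM against 4294 to 6279 CPM in the other 5 libraries. Skeletal muscle markers summed to 89.7 CPM in Piezo Gel+US replicate 2 and 7.47 to 23.8 CPM elsewhere. Acta1, the actin of skeletal muscle, gave 72.1 of those 89.7 CPM and had 1.11 to 3.00 CPM elsewhere. Of the 10 muscle names 5 were tested, and 2 of these were highest in Piezo Gel+US replicate 2. Tnnt3 had 8.30 CPM in that library and was highest in Gel+US replicate 2, at 17.8 CPM. Actn3 was lowest in Piezo Gel+US replicate 2, at 1.26 CPM. Neuron markers were below 0 for 12 of 12 genes (median -0.68). They summed to 2324 to 15116 CPM in Gel+US, highest in replicate 3, and 1892 to 7592 CPM in Piezo Gel+US, lowest in replicate 2. Macrophage and microglia markers were below 0 for 12 of 14 genes, with sums of 998 to 1286 CPM in Gel+US and 826 to 1426 CPM in Piezo Gel+US. Cd68 had 8.47 to 36.4 CPM in Gel+US and 6.24 to 21.4 CPM in Piezo Gel+US, and Gpnmb, a gene of lipid-laden phagocytes, had 22.7 CPM in Piezo Gel+US replicate 2 and 124 to 302 CPM elsewhere. Fat cells make fatty acids as well. Of the 12 adipocyte names 7 were tested, 4 above 0 and 3 below (median 0.21), with list sums of 201 to 222 CPM in Gel+US and 220 to 419 CPM in Piezo Gel+US. Adipoq, Lep and Cidec had 0 to 28, 0 to 1 and 0 to 4 counts per library and fell below the filter, and Plin1 had 5 to 16. Pnpla2, a triglyceride lipase, and Dgat2, which makes triglycerides, did not overlap between groups, with log2 fold changes of 0.88 (unadjusted p = 0.0394) and 0.61 (unadjusted p = 0.0263), and both are made in many cell types. Pnpla2 alone gave 293 of the list's 419 CPM in Piezo Gel+US replicate 3. The 3 adipocyte markers below 0 were Pparg, Plin4 and Cfd, with log2 fold changes of -0.68, -0.29 and -0.13. Acta1, Tnnt3, Actn3, Pnpla2, Dgat2, Pparg, Plin4 and Cfd were named after their values were seen. Fibroblast markers summed to 1418, 8417 and 903 CPM in Gel+US and 1554, 6621 and 1953 CPM in Piezo Gel+US. All were high in replicate 2 of both groups except Fn1, which measured 340, 278 and 472 CPM in Piezo Gel+US. The part of these cells in the member values was not tested.

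Further genes of the pathway, from lists of 68 names, gave 33 of 58 tested above 0 and 25 below, with a median of 0.11 and 0 called. Of the 7 tested for cholesterol synthesis, uptake and control, 3 were above 0 (median -0.05). The gene of lowest p in this list was Faxdc2, a hydroxylase-like protein, at 25.5, 43.6 and 19.9 CPM in Gel+US and 28.8, 109 and 44.7 CPM in Piezo Gel+US, a log2 fold change of 1.03, and 0.30 without Piezo Gel+US replicate 2. Its groups overlapped, with the highest value in Piezo Gel+US replicate 2. Mbtps1 and Mbtps2, the proteases that cleave SREBPs in the Golgi, had log2 fold changes of 0.19 and -0.45, and Insig2, the second Insig protein, stood at -0.15, all 3 named after their values were seen.

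Storage and export genes stood at 8 above 0 and 5 below (median 0.07). Apoe, the main apolipoprotein of the nervous system, measured 2634, 3069 and 2034 CPM in Gel+US and 3554, 2076 and 2837 CPM in Piezo Gel+US, a log2 fold change of 0.13. Its groups overlapped, as did those of Soat1, which esterifies cholesterol, at 38.6 to 81.0 CPM in Gel+US and 47.1 to 72.6 CPM in Piezo Gel+US, a log2 fold change of 0.10. The lowest p here was that of the oxysterol receptor Nr1h2 (log2 fold change 0.43). Fatty acid supply and other elongases stood at 11 above and 10 below (median 0.11), led by the desaturase-like gene Fads3 (log2 fold change 0.80, and 0.31 without Piezo Gel+US replicate 2). Of the sphingolipid genes 11 of 17 were above 0 (median 0.20). Gal3st1, which sulfates galactosylceramide, measured 47.3, 34.4 and 41.9 CPM in Gel+US and 58.6, 95.3 and 46.6 CPM in Piezo Gel+US, a log2 fold change of 0.70, unadjusted p = 0.0508. Without Piezo Gel+US replicate 2 its log2 fold change was 0.35.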

How the data were processed

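RNA of 6 libraries was compared, 3 Gel+US and 3 Piezo Gel+US, grouped by the sample titles. The authors deposited unnormalised read counts for each gene beside its name, position and length. Polyadenylated RNA and strand-marked libraries were used, per the labels' protocols. The submitters' processing notes list DESeq2 1.20.0, HISAT2 2.0.5, fastp 0.19.7 and featureCounts 1.5.0-p3 without saying what each did. The genome build and the use of strand in counting are not given in the sources used here. Of the deposited gene identifiers 0 occurred in the RefSeq table of GRCr8, while 15093 genes shared a symbol with it. Whether the reads were aligned to another Norway rat assembly or to another rat species was not determined. The names not found, the lengths behind CPM per kb and the deposited positions depend on that annotation, and promoters were matched to it by symbol alone.

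Counts were fitted with edgeR 4.0.16 in R 4.3.3: trimmed mean of M-values factors, filterByExpr (minimum count 10, total 15), robust quasi-likelihood test on group alone, Benjamini-Hochberg adjustment over 17066 genes, call at 0.05. Intervals are 95% and derive from the same fit, and the code was tested on simulated data. The common biological coefficient of variation was 0.382. The members and lists were chosen with earlier results of these data known. Some genes of the wider lists are not reported here and are left out of those lists' counts and sums. Genes given in every library are those of unadjusted p below 0.05 or without overlap, the gene of lowest p and of highest CPM per kb in each class, and a set of key enzymes. Alternatives were other size factors, DESeq2 1.42.0, limma-voom 3.58.1, no filter, the replicate number as a block, and leaving out libraries.

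Both groups carry the numbers 1 to 3. Libraries of equal number deviated together (correlations 0.253, 0.296 and 0.251 over genes). Of unequal numbers, Gel+US replicate 1 and Piezo Gel+US replicate 3 correlated at 0.198, and the rest ran from -0.342 to -0.0408. Deviations from the mean of 3 libraries are tied to each other, so these correlations cannot settle whether the numbers are paired. The labels state no shared litter or day. Replicates are called biological in the labels.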

Additional observations from a re-analysis of the deposited data

How the results depend on the processing

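No gene passed an adjusted p of 0.05 under any of the 15 alternatives, and the lowest adjusted p of a member was 0.26. The number of members above 0 was 30 with the other size factors, DESeq2, no filter and the replicate block, 21 with limma-voom, and 24 to 31 with 1 library left out, where the median log2 fold change ran from 0.05 to 0.44. Leaving out an equal-numbered pair was chosen after seeing the data: the count and median were 29 and 0.36 without the pair numbered 1, 11 and -0.10 without 2, and 31 and 0.63 without 3. With the replicate number as a block the median was 0.32 and 986 genes had an unadjusted p below 0.05, against 359 without it, 652 by DESeq2 and 2413 by limma-voom. The block changed no call, and Gpnmb turned to -0.33 under it. Abcg1, Elovl1, Elovl5, Fa2h, Lss, Nr1h3, Pmvk, Scap, Srebf2 and Stard4 kept their sign in all 15 alternatives. In the fit that leaves out replicate 2 of both groups the genes whose log2 fold change turned were Hmgcs1 -0.48, Mvk -0.091, Mvd -0.24, Idi1 -0.57, Fdps -0.27, Fdft1 -0.22, Sqle -0.47, Tm7sf2 -0.10, Msmo1 -0.13, Nsdhl -0.085, Hsd17b7 -0.34, Sc5d -0.12, Dhcr7 -0.27, Insig1 -0.28, Abca1 0.30, Acaca -0.034, Fasn -0.17, Elovl6 -0.35, Fads1 -0.031, Fads2 -0.087, Ugt8 -0.18, Mog 0.0074 and Cd68 0.73. With limma-voom they were Hmgcs1 -0.0044, Mvd -0.13, Fdft1 -0.014, Sqle -0.20, Tm7sf2 -0.069, Hsd17b7 -0.27, Ebp -0.025, Sc5d -0.021, Dhcr7 -0.17, Abca1 0.23, Fads2 -0.065 and Cd68 0.23. Without replicate 1 of both groups they were Hsd17b7 -0.15, Apoe -0.080, Soat1 -0.027 and Gpnmb -0.35, and without replicate 3, Acly 0.39, Apoe -0.018 and Gpnmb -0.14. With 1 library left out, the log2 fold changes that turned in at least 1 of 6 fits ranged as follows: Hmgcs1 -0.16 to 1.06, Mvd -0.098 to 0.39, Idi1 -0.26 to 1.17, Fdps -0.056 to 0.60, Sqle -0.19 to 0.47, Hsd17b7 -0.35 to 0.42, Sc5d -0.057 to 0.43, Dhcr7 -0.013 to 0.56, Insig1 -0.042 to 0.65, Abca1 -0.37 to 0.17, Acly -0.60 to 0.26, Fasn -0.052 to 0.45, Elovl6 -0.11 to 0.82, Fads2 -0.021 to 0.21, Apoe -0.087 to 0.30, Soat1 -0.11 to 0.49, Mog -0.54 to 0.23, Cd68 -0.82 to 0.37, Gpnmb -0.45 to 0.68. The causes of these turns were not tested. The short promoter core CACNCCAC was found in 5 members where TCACNCCAC was found in 0, as the shorter letters occur more often. Of the 10 members of highest CPM per kb, 8 remained among the first 10 without scaling by length. With 3 libraries a group, the 95% intervals of the members limit what can be called, and 30 of 33 of them hold 0.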
